A study of Mus musculus with 2 samples.

Results

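Genes of the ATF4 amino acid response were examined as a group of 34: transcription factors, stress effectors, enzymes that make amino acids, amino acid transporters and cytosolic aminoacyl-tRNA synthetases. Members were found by gene symbol among the transcript clusters that list exactly 1 symbol, the cluster with the highest mean being kept for each gene, which gave 32 measured genes of 30145 named genes in all. Aars was measured only by a cluster that also lists Exosc6 and was left out of the 32, and no expression value of Pycr1 was analysed here. The samples were adipose-derived stromal cells, the fibroblast-like progenitors that grow out of fat tissue, taken from inguinal fat of C57BL/6J animals that were 6 to 10 weeks old. Wisp1 KO cells came from mice with a global knockout, bred from animals whose Wisp1 exons 1 to 5 on chromosome 15 were flanked by loxP sites and a Cre line that the labels call Cre-neo, and WT cells came from mice of the same background strain. Both were grown in DMEM with 15% fetal bovine serum. The labels give neither the number of animals behind each array, nor their sex, nor the passage of the cells.

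ATF4 is the transcription factor at the end of the integrated stress response. Kinases that sense amino acid shortage (GCN2), misfolded protein in the endoplasmic reticulum (PERK), heme deficiency or mitochondrial stress (HRI) and double-stranded RNA (PKR) phosphorylate the initiation factor eIF2, which lowers general translation while the Atf4 message is translated more. ATF4 then pairs with C/EBP proteins at composite sites near its target genes, and these targets import amino acids, build serine, glycine, asparagine and proline, and charge tRNAs. Because much of the control of ATF4 lies in translation, its mRNA level is an incomplete measure of its activity. In fibroblasts and bone-forming cells the program is known for feeding collagen synthesis with glycine and proline.

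Each genotype was measured on 1 array of 65956 transcript clusters, with log2 values whose median was 3.92 in Wisp1 KO and 3.93 in WT. Without replicates the spread within a genotype is unknown, and no test was run. Differences are Wisp1 KO minus WT on the log2 scale and compare these arrays, not the genotypes. Wisp1 itself was at 5.40 in Wisp1 KO and at 7.79 in WT, 5.25-fold lower in Wisp1 KO, though whether each probe lies in the deleted exons was not analysed here. The stromal matrix genes Col1a1 (11.90 in Wisp1 KO, 11.40 in WT, 0.50) and Col1a2 (11.10 and 10.57, 0.52) were bright on both arrays and higher in Wisp1 KO. The surface markers Thy1 (10.43 and 10.34, 0.09) and Pdgfrb (10.49 and 10.38, 0.11) were bright on both arrays with smaller differences. Of 13 measured stromal markers 9 were higher, 3 lower and 1 equal, with a median difference of 0.08. Values ran from 0.60 for the matrix gene Lum to -0.21 for Eng, -0.22 for Itgb1 and -0.30 for Cd44. Dpp4 (2.79 on both arrays) and Nt5e (3.28 and 3.27) lay below 4.65, the median level of named genes. All values are those of bulk RNA, in which more cells of a type and more RNA per cell cannot be told apart.

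Composite C/EBP-ATF sites carry the core TGATGNAA, and this core was looked for on both strands of the window from 250 bases before to 50 bases after each transcript start (RefSeq, build GRCm38.p6). Windows were found for 28 of the 34 members (none for Slc7a5, Slc7a3, Wars, Nars, Cars and Lars), and 11 of the 28 (39.3%) held the core, against 3.97% of all 32851 windows and 4.51% of the 27025 genes with a window. The members were listed as genes of the ATF4 response, which acts through such sites, so this share is not independent of how they were chosen. The 30 bases around the match are given below for 10 of these 11 members. Each is read on the strand that shows the core, which is in capitals. Positions are those of the leftmost base of the core along the gene, counted from its start.
Trib3, position 15, chr2:152344028-152344057, plus strand: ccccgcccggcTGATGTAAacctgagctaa
Chac1, position -193, chr2:119351038-119351067, minus strand: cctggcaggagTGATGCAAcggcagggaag
Vldlr, position -200, chr19:27216809-27216838, minus strand: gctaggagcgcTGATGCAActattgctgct
Atf3, position -110, chr1:191183425-191183454, plus strand: cgcggacttggTGATGCAAgtgcgagaagg
Asns, position -23, chr6:7693214-7693243, minus strand: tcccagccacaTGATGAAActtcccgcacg
Pycr1, position -103, chr11:120643833-120643862, minus strand: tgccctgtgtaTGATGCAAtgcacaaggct
Gars, position -30, chr6:55037960-55037989, minus strand: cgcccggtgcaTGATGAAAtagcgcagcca
Yars, position 4, chr4:129189895-129189924, plus strand: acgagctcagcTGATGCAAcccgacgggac
Iars, position 8, chr13:49682126-49682155, minus strand: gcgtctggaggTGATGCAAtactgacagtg
Tars, position -15, chr15:11399655-11399684, plus strand: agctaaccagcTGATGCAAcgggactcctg

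Most of these members read TGATGCAA, Trib3 alone read TGATGTAA, and Asns and Gars read TGATGAAA. For longer context, the 250 bases before the start of Chac1 and of Asns are printed in the direction of the gene, with the match in capitals (on Chac1 it appears as the reverse complement).
Chac1, chr2:119350992-119351241, plus strand: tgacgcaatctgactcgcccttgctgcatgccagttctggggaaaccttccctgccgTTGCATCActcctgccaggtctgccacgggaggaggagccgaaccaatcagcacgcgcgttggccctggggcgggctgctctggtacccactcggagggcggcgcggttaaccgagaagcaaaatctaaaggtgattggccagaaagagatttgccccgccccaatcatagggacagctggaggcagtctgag
Asns, chr6:7693210-7693459, minus strand: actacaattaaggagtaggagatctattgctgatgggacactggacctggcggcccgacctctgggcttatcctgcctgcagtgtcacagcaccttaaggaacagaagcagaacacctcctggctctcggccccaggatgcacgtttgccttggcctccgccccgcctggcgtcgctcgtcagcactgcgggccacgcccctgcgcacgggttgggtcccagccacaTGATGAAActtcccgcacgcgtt

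The full cyclic AMP response element TGACGTCA, which reads the same on both strands, was in no member window and in 1.79% of all windows. At so low a share, its absence from this few windows is not a result about the members.

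**Figure D1:**
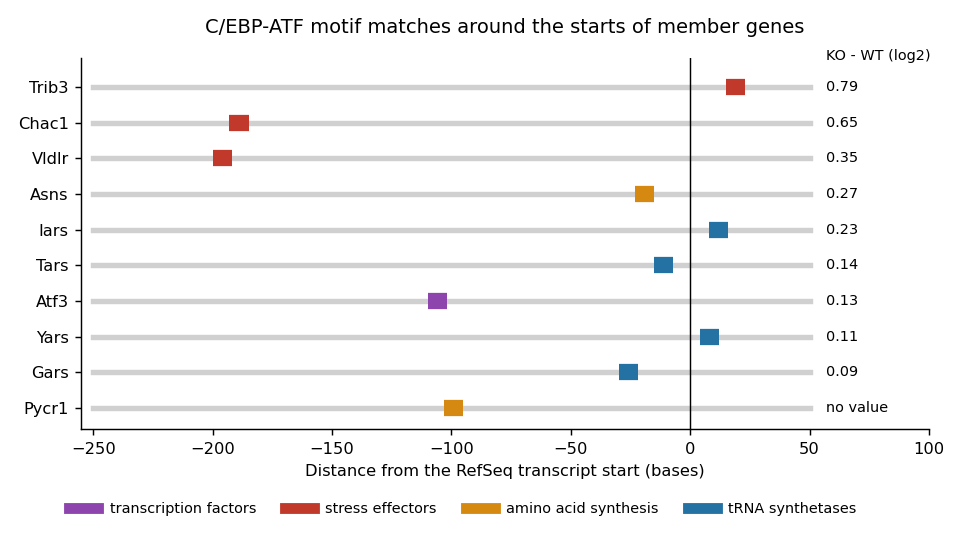
Positions of the C/EBP-ATF core in the windows of 10 of the 11 members that hold it; the x axis is the distance from the RefSeq transcript start in bases, each grey bar is one 300-base window, the coloured blocks are matches (colour by role), and the numbers at the right are the differences, Wisp1 KO minus WT, on the log2 scale. Matches lie between positions -200 and 15, and Pycr1 has no value of its own.

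The ATF4 genes were higher in the Wisp1 KO array as a group, by small amounts. Of the 32 measured members 27 were higher, 2 were lower and 3 had exactly equal values on both arrays, with a median difference of 0.22. The background was the 15073 named genes with an average level of 4.65 or more, of which 56.9% were higher, 39.9% lower and 3.12% equal, with a median difference of 0.03. At least 25% higher expression on the linear scale was seen for 10 members of 32, against 3.89% of the background genes. No member was lower by the same factor (20% lower), against 2.64%, and 6.53% of the background passed it in either direction. Trib3 and Chac1 were the members at least 1.5-fold higher (0.717% of the background), and none was 1.5-fold lower (0.464%; 1.18% either way). No member differed 2-fold (0.0663% higher, 0.0995% lower, 0.166% either way). Without Trib3 and Chac1 the median of the members was still 0.22.

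The 27 higher members stayed higher when the arrays were rescaled, but the count at least 25% higher depended on the scaling. It was 6 in place of 10 both under quantile normalization and under loess centring on mean expression, where Ddit3, Ddit4, Vldlr and Slc7a1, which lay just past that limit, came to lie just short of it. The median of all members was 0.18 under either. The background share at least 25% higher was not computed under these scalings, so the 3.89% holds for the values as deposited only.

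**Figure D2:**
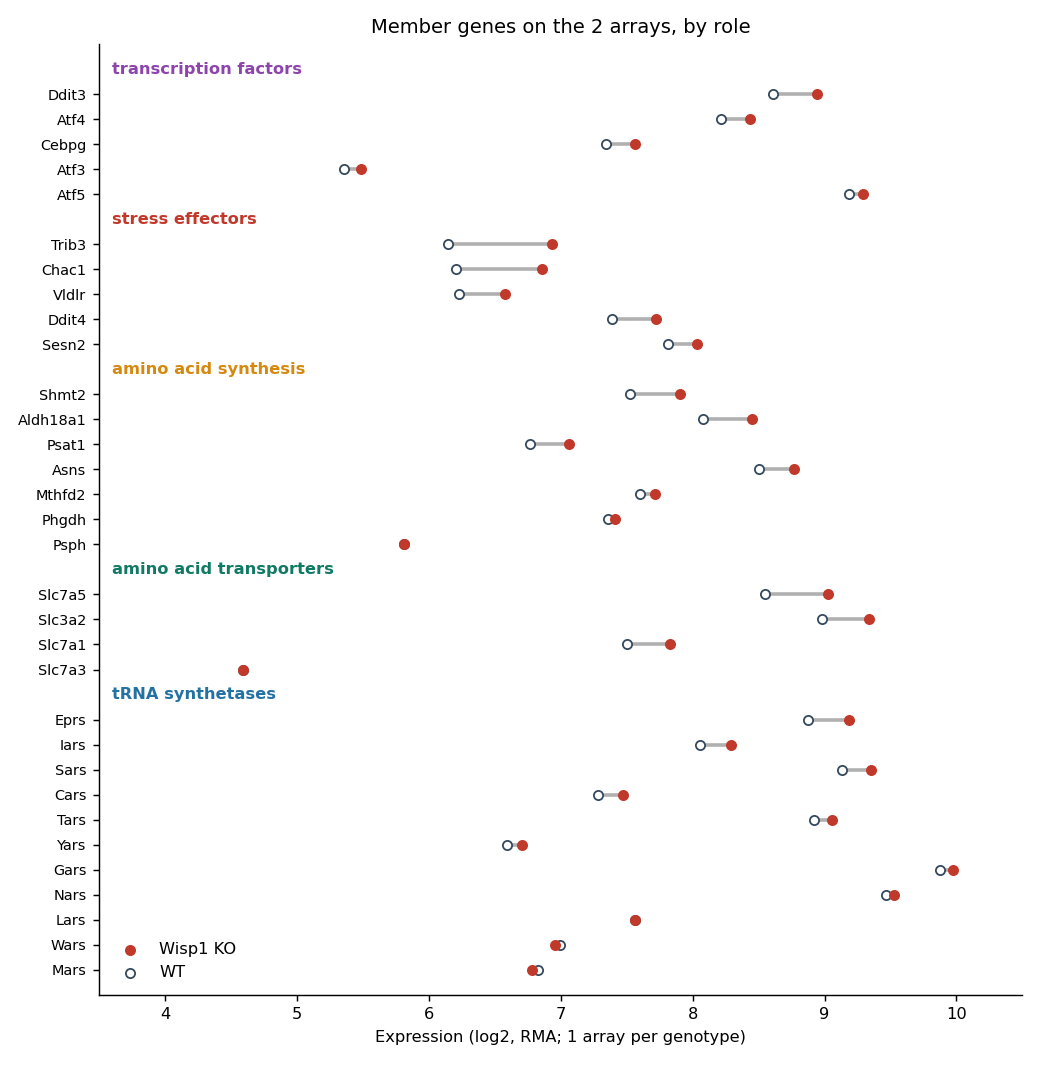
Log2 expression (x axis) of the 32 measured members, 1 row per gene grouped by role, with the Wisp1 KO array as filled red points and the WT array as open points; 1 array per genotype, no error bars, and levels of different genes are not comparable. The red point lies to the right for 27 genes, and where both values are equal (Psph, Slc7a3, Lars) it covers the open point.

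**Figure D3:**
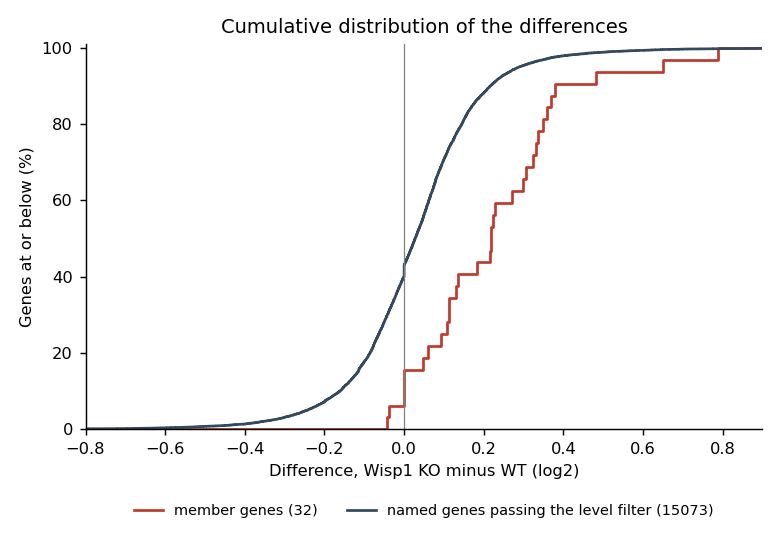
Cumulative share of genes (y axis, percent) at or below each difference, Wisp1 KO minus WT, in log2 (x axis), for the 32 members in red and the 15073 named genes that passed the level filter in dark blue. The curve of the members lies to the right, with a median of 0.22 against 0.03.

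The stress effectors, which act downstream of ATF4 and CHOP, held the 2 largest differences of the members, Trib3 and Chac1. Trib3, a pseudokinase that binds ATF4 and damps its activity, was at 6.93 in Wisp1 KO and at 6.14 in WT, a difference of 0.79 or 1.73-fold, the 36th highest of the 15073 genes. Chac1, an enzyme that degrades glutathione and is among the most strongly induced targets of the pathway, was at 6.86 in Wisp1 KO and at 6.20 in WT (0.65, 1.57-fold), ranking 69th. Both carry the core motif shown above. Vldlr, a lipoprotein receptor that ATF4 induces under stress, was at 6.58 and 6.23 in Wisp1 KO and WT, 0.35 higher. Ddit4 (REDD1), an inhibitor of the growth kinase complex mTORC1, was at 7.72 in Wisp1 KO and 7.39 in WT, 0.34 higher, and Sesn2, a leucine sensor that also restrains mTORC1, was at 8.04 and 7.82, 0.22 higher. All 5 stress effectors were thus higher, with a median of 0.35.

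All 5 transcription factors were higher too, by less, with a median of 0.22. Ddit3, which encodes the ATF4 target CHOP, was at 8.94 in Wisp1 KO and at 8.61 in WT (0.33), and a second transcript cluster of the gene gave 8.84 and 8.44 (0.40), so both clusters had the same direction. Atf4 was at 8.44 in Wisp1 KO and 8.21 in WT, 0.22 higher, and its dimer partner gene Cebpg was at 7.56 and 7.34, also 0.22 higher. Smaller differences were seen for Atf3, a stress-induced member of the family (5.49 in Wisp1 KO, 5.36 in WT, 0.13), and for Atf5, which like Atf4 is controlled through translation (9.29 in Wisp1 KO, 9.19 in WT, 0.11).

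Among the enzymes that make amino acids, 6 of 7 were higher and Psph was equal, with a median of 0.27. The mitochondrial serine hydroxymethyltransferase gene Shmt2, which turns serine into glycine, was at 7.90 in Wisp1 KO and at 7.52 in WT (0.38, 1.30-fold), and Aldh18a1, which catalyses the first step from glutamate towards proline, was at 8.45 and 8.08 (0.37, 1.29-fold). Asns, the asparagine synthetase gene whose promoter is the classical model of amino acid control, was at 8.77 in Wisp1 KO and 8.50 in WT, 0.27 higher. The serine synthesis pathway itself was uneven. Psat1, its transaminase, was 0.30 higher (7.07 in Wisp1 KO, 6.77 in WT), whereas Phgdh, which opens the pathway, differed by 0.05 (7.41 and 7.36) and Psph, which closes it, read 5.81 on both arrays. Mthfd2, the mitochondrial folate enzyme that follows Shmt2, was at 7.71 in Wisp1 KO and 7.60 in WT, a difference of 0.11.

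Amino acid transporters had a median of 0.34, with 3 of 4 higher. Slc7a5 (LAT1), the carrier of leucine and other large neutral amino acids, was at 9.03 in Wisp1 KO and 8.55 in WT (0.48, 1.40-fold), and the gene of its partner chain, Slc3a2 (4F2hc), was at 9.34 and 8.98 (0.36, 1.28-fold), so both chains of the same transporter were higher. Slc7a1, the main carrier of arginine and lysine, was at 7.83 in Wisp1 KO and 7.50 in WT, 0.32 higher. Its relative Slc7a3 read 4.59 on both arrays, below the level filter of 4.65, and was the only measured member to do so.

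The tRNA synthetases, which attach amino acids to their tRNAs, had the lowest median of the 5 roles. Of 11 measured, 8 were higher, 2 lower and 1 equal, the median was 0.11, and none was 25% higher. The highest were Eprs, the fused glutamyl- and prolyl-tRNA synthetase (9.18 in Wisp1 KO, 8.88 in WT, 0.30), Iars for isoleucine (8.29 and 8.06, 0.23) and Sars for serine (9.35 and 9.14, 0.21). Cars for cysteine was 0.18 higher, Tars for threonine 0.14, Yars for tyrosine 0.11, Gars for glycine 0.09 and Nars for asparagine 0.06. At the other end, Wars for tryptophan (6.96 in Wisp1 KO, 7.00 in WT, -0.04) and Mars for methionine (6.78 and 6.83, -0.04) were slightly lower and Lars for leucine read 7.56 on both arrays. The cluster shared by Aars, for alanine, and the exosome gene Exosc6 was at 7.67 in Wisp1 KO and 7.50 in WT (0.17), which cannot be assigned to either gene. The median of the synthetases was 0.07 under quantile normalization.

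The lists of synthetase genes outside the ATF4 set had smaller medians. For 10 other cytosolic synthetases and synthetase complex proteins the median was 0.03, with 7 higher and 3 lower and none 25% higher or 20% lower. Of the background genes 56.9% were higher. Kars for lysine (8.34 in Wisp1 KO, 8.25 in WT, 0.09) was the highest. Hars for histidine (7.30 and 7.51, -0.20) and the scaffold gene Aimp2 (-0.16) were the lowest. Aimp2, Eef1e1 (-0.12) and Aimp1 (0.03) are complex proteins, not synthetases. The remaining synthetases read 0.08 for Rars, 0.07 for Farsa and Farsb, 0.03 for Qars and 0.00 for Vars. No median was taken over the synthetases alone. Of the 7 of these measured genes with a RefSeq window, none held the TGATGNAA core. The share over all genes with a window was 4.51%, so a list this short would mostly hold none. Mitochondrial synthetases had a median of -0.02 over 16 genes, with 5 higher and 9 lower, from -0.08 for Cars2 to 0.15 for Rars2 and 0.18 for Wars2. With 1 array per genotype, the difference between these lists could not be tested.

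A list of other genes that depend on ATF4, none of them among the 34, was also mostly higher. Of 22 measured, 20 were higher and 2 lower, the median was 0.26, and 6 were at least 25% higher. Of the background genes 56.9% were higher and 3.89% at least 25% higher. This list was chosen with earlier results of these data known, so it is not independent support. Aldh1l2, the mitochondrial formyltetrahydrofolate dehydrogenase gene, was at 7.17 in Wisp1 KO and 6.52 in WT (0.65), and Pck2, the mitochondrial phosphoenolpyruvate carboxykinase gene, was at 7.66 and 7.07 (0.59). Ero1l (Ero1a), an oxidase of the endoplasmic reticulum that CHOP induces, was 0.41 higher, Cth, which makes cysteine, 0.40, the mitochondrial folate gene Mthfd1l 0.36 and Herpud1, a protein of endoplasmic reticulum degradation, 0.34. The lower genes were Stc2 (-0.06) and Cars2 (-0.08), which is also counted among the mitochondrial synthetases. Windows were found for 19 of the 23 genes listed, 1 of them not measured, and 7 (36.8%) held the core, Pck2 and Herpud1 among them. The share over all genes with a window was 4.51%. As with the members, the genes were listed for their dependence on ATF4, so this share is not independent of that choice.

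Enzymes of the same metabolic neighbourhood that were not on an ATF4 list were evenly split. Of 11 measured one-carbon, proline and amino acid enzymes 5 were higher, 5 lower and 1 equal, with a median of 0.00. Of the background genes 56.9% were higher, 39.9% lower and 3.12% equal. With 11 genes the split is near those shares and does not set these enzymes apart from genes in general. The cytosolic trifunctional folate enzyme gene Mthfd1 was at 6.62 in Wisp1 KO and 6.73 in WT (-0.11), Gldc of the glycine cleavage system was at 4.56 and 4.74 (-0.17, dim), and Got1, the cytosolic aspartate transaminase, was the highest at 7.90 and 7.70 (0.20).

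Upstream of ATF4, transcripts of the eIF2 kinases differed by 0.15 or less, while both phosphatase subunits that reset the pathway were higher and the GCN2 regulator Impact was lower. The list of eIF2 kinases, eIF2 and eIF2B subunits and regulators had a median of 0.03 over 14 genes, with 9 higher and 5 lower. Of the background genes 56.9% were higher, 39.9% lower and 3.89% at least 25% higher, so these counts are near the background. The kinase genes Eif2ak4 (GCN2) and Eif2ak3 (PERK) differed by 0.03 and -0.05, Eif2ak1 (HRI) by 0.09 and Eif2ak2 (PKR) by 0.15. Ppp1r15b, the constitutive targeting subunit of the eIF2 phosphatase, was at 7.93 in Wisp1 KO and 7.59 in WT (0.34, the only gene of the list at least 25% higher), and Ppp1r15a (GADD34), the stress-induced one, was at 6.50 and 6.18 (0.32). Impact, which restrains GCN2, was lower, at 9.02 in Wisp1 KO and 9.28 in WT (-0.26). These are transcript levels, and phosphorylation of eIF2 was not measured.

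The chaperone side of the unfolded protein response, which runs through ATF6 and XBP1, had a smaller median than the ATF4 members. Of 18 measured genes 15 were higher, 2 lower and 1 equal, with a median of 0.06 and none 25% higher or 20% lower. Of the background genes 56.9% were higher, 3.89% at least 25% higher and 2.64% at least 20% lower. Most of these 18 genes thus had the same direction as the members, of which 27 of 32 were higher. The largest value of the list was that of Xbp1 itself, at 8.53 in Wisp1 KO and 8.24 in WT (0.29). The main chaperone gene Hspa5 (BiP) was at 9.58 and 9.42 (0.16), Hsp90b1 read 10.96 on both arrays, and Sdf2l1 was the lowest at 7.99 in Wisp1 KO and 8.17 in WT (-0.19). Translation factors, taken as general genes of protein synthesis, had a median of 0.03 over 14 genes, with 10 higher and 4 lower and Eif4b (0.24) and Eef2 (0.18) highest.

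**Figure D4:**
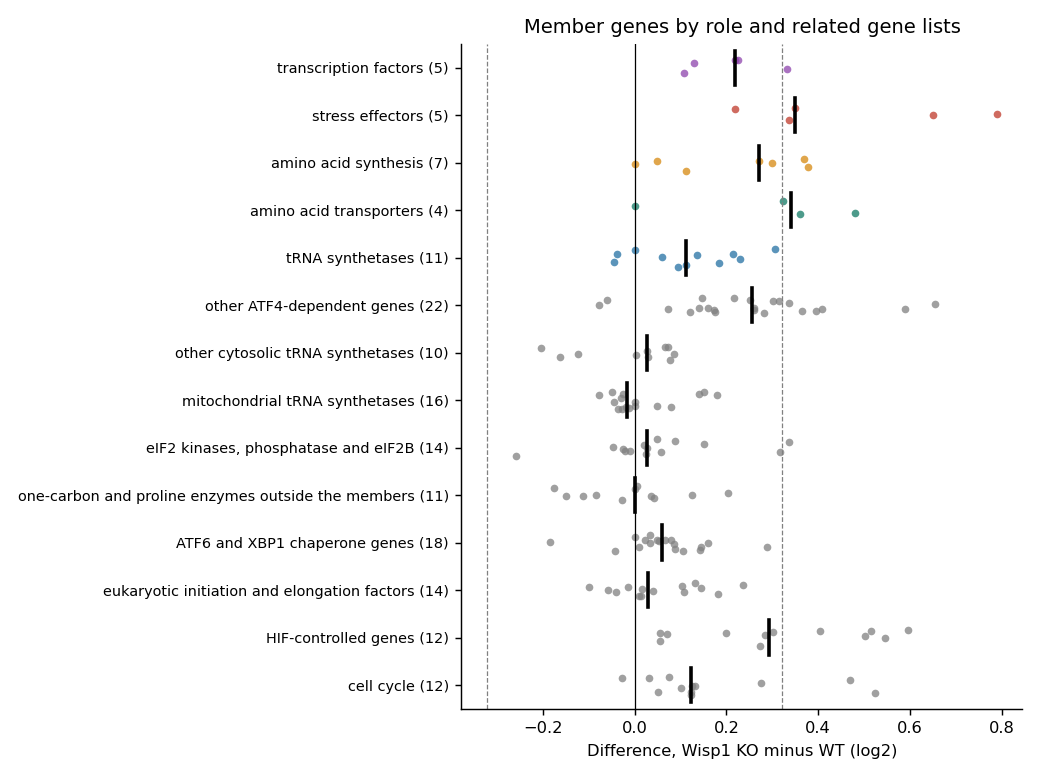
Differences, Wisp1 KO minus WT, in log2 (x axis) for each measured gene of the members by role (coloured) and of related gene lists (grey), with the number of genes in brackets, the median of each list as a black bar and dashed lines at 25% higher and 20% lower. The medians of the stress effectors, transporters and amino acid enzymes lie at 0.35, 0.34 and 0.27. The other cytosolic synthetases together with synthetase complex proteins have a median of 0.03, and the mitochondrial synthetases one of -0.02.

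Pooled over roles, members with and without the core motif had close medians. The median was 0.23 over the 9 measured members with a match and 0.22 over the 17 with a window and no match. Within roles, each with few genes, the order varied. Medians with and without a match were 0.65 (3 genes) and 0.28 (2 genes) for stress effectors, and 0.12 (4 genes) and 0.21 (3 genes) for tRNA synthetases. For amino acid synthesis the only measured gene with a match, Asns, was at 0.27, against a median of 0.21 over 6 without. For transcription factors the only gene with a match, Atf3, was at 0.13, against a median of 0.22 over 4 without. Over all named genes that passed the level filter and had a window it was 0.05 for 253 genes with a match and 0.03 for 9061 without.

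Other programs differed between the arrays at the same time. For comparison, 56.9% of the background genes were higher and 3.89% at least 25% higher. HIF-controlled genes, the response to low oxygen, were higher in 12 of 12 cases with a median of 0.29; Vegfa (0.30) is counted here and among the other ATF4-dependent genes. The largest values were those of the mitophagy gene Bnip3 (8.38 in Wisp1 KO, 7.78 in WT, 0.60) and the oxygen sensor gene Egln3 (6.73 and 6.18, 0.55), and Egln1 (0.51), Pdk1 (0.50) and Pgk1 (0.40) were also at least 25% higher. The Pgk1 value is that of the brighter of its 2 transcript clusters only. Ddit4 and Vldlr among the members are known to be induced by hypoxia as well. Cell cycle genes were higher in 11 of 12 cases with a median of 0.12, led by the cyclin gene Ccnb2 (0.52) and the proliferation marker Mki67 (0.47), and Tyms is counted both here and among the one-carbon enzymes.

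Markers of other cell types were examined beside the ATF4 genes. Of 12 macrophage markers 9 were higher, 2 lower and 1 equal (median 0.27, mean level 4.92 in Wisp1 KO and 4.55 in WT). Lyz2 was at 7.43 in Wisp1 KO and 6.14 in WT (1.29). Fcer1g (0.90), Ctss (0.63, dim), Cd68 (0.58), Tyrobp (0.51) and C1qb (0.33) were also at least 25% higher. The defining genes Adgre1 (3.25 and 3.33) and Ptprc (2.86 on both arrays) were dim. The 6 macrophage markers that passed the level filter had a median of 0.55. Pericyte and smooth muscle markers were lower in 6 of 8 cases (median -0.24, mean level 6.58 in Wisp1 KO and 6.82 in WT), led by Mcam (-0.69), Myh11 (-0.51) and Cspg4 (-0.37). The 5 of them that passed the filter had a median of -0.365. Mature adipocyte markers had a mean level of 5.22 in Wisp1 KO and 5.40 in WT, with 4 of 8 higher. The adipokine genes Retn (-1.08) and Adipoq (-0.64) were lower, but both had means below the level filter of 4.65. The 4 adipocyte markers that passed the filter had a median of 0.12. Endothelial markers averaged 4.40 in Wisp1 KO and 4.17 in WT, with 4 of 7 higher. Cdh5 and Emcn were each at 0.80, both with means below the filter. The 2 endothelial markers that passed it had a median of -0.07. Lymphocyte markers (3.75 in Wisp1 KO, 3.73 in WT, 3 of 5 higher, Cd79a at 0.28 and Ms4a1 at -0.25) and epithelial and mesothelial markers (4.35 and 4.40, 4 of 7 higher, Krt18 at -0.35) were dim. Among the background genes 56.9% were higher, so 4 of 7 or 3 of 5 higher is close to that share. Many of these markers also lay below the level filter that defines the background. The part of these programs and cell types in the ATF4 values was not tested.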

How the data were processed

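RNA was labelled with the Affymetrix GeneChip WT PLUS kit, per the labels' protocols. The values the authors deposited are log2 levels of transcript clusters; the submitters' processing notes name RMA and Partek. Versions, the arrays normalized together and the genome build of the array design are not given in the sources used here. RMA makes array distributions alike and compresses differences of dim genes. Their range fits a log2 scale (1.74 to 13.65 in Wisp1 KO, 1.88 to 13.62 in WT).

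Clusters were named through the platform annotation, which can be old: 30604 had 1 symbol, 2146 several and 33206 none. Genes of other lists were matched by symbol or, failing that, through Entrez IDs with the RefSeq table of GRCm38.p6. Wisp1 KO minus WT was taken from the values as they stand, and no test was possible; 1 array per genotype limits the precision. Background shares used named genes with a mean at or above 4.65, and limits of 25% higher or 20% lower (the same factor), 1.5-fold and 2-fold. The text names all members and, in each other list, genes past the lowest limit or else the 2 with the largest difference; other genes named were chosen after their values were seen. Members and all 21 lists were chosen with earlier results of these data known. The motif match of 1 member is counted but its sequence and position are not reported here. Steps were tested on simulated data. Software was matplotlib 3.10.9, pandas 2.3.3, numpy 2.4.6, statsmodels 0.14.6 and Python 3.11.15.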

Additional observations from a re-analysis of the deposited data

How the results depend on the processing

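The alternatives were quantile normalization, centring on the median, loess centring, averaging a gene's clusters, keeping clusters that list several symbols, and only members at or above the level filter. The members' median kept its sign under each, between 0.18 and 0.22. The members at least 25% higher numbered 6 under quantile normalization and 6 under loess centring, against 10, and the median of the tRNA synthetases was 0.074 under quantile normalization, against 0.11. Wars and Mars stayed slightly lower, while Psph and Lars, equal on both arrays as deposited, became lower by at most 0.05. With a fold of 2 in place of 1.5, 0 members remained. Of all filtered genes 48.4% were higher after quantile normalization and 50.2% after loess, against 56.9% as deposited. Leaving out the members with equal values, chosen after seeing the data, gave a median of 0.22. No paired analysis was possible because each group holds 1 array.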

Other observations

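Psph, Lars and Slc7a3 each held the same value on both arrays to every deposited digit. Exact equality was seen for 3.12% of the named genes that passed the level filter and for 4.45% of all transcript clusters. How the equal values came about was not tested.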
